A study of Homo sapiens with 18 samples.

Results

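The clustered protocadherin genes are the protein-coding genes of GENCODE 44 on chromosome 5 whose names start with PCDHA, PCDHB or PCDHG. They number 53 of the 19970 protein-coding genes on chromosomes 1 to 22 and X, with 15 in PCDHA, 16 in PCDHB and 22 in PCDHG. Name and position alone decide membership, though earlier results of these data were known when the set was chosen. In hg38, PCDHA runs over chr5:140786136-141012347, PCDHB over chr5:141051374-141249365 and PCDHG over chr5:141330514-141512977, and all 53 genes lie on the plus strand. The study asked how the DNA cytosine deaminase APOBEC3B (A3B) relates to R-loops, structures in which RNA pairs with one DNA strand and displaces the other. R-loops were mapped by DRIP–seq, which immunoprecipitates DNA:RNA hybrids with the S9.6 antibody, in wild-type (WT) MCF10A cells and in A3B KO MCF10A cells that received DMSO, or phorbol ester (PMA, 25 ng/ml) during 2 h or 6 h. A3B was mapped by anti-GFP ChIP–seq in MCF10A-TREx-A3B-eGFP cells, in which doxycycline switches on a GFP-tagged A3B, without doxycycline and with DMSO (DOX- DMSO), or after 24 h of 1 µg/ml doxycycline together with DMSO (DOX+ DMSO) or with PMA for 2 h (DOX+ PMA 2 h). MCF10A cells are nontumorigenic breast epithelium and carry basal markers. The A3B KO line is 1 clone made with a guide that also cuts APOBEC3A, so a difference between it and WT can be the clone's as well as the gene's. A library with PMA but without doxycycline was not analysed here.

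The values are the authors' lists of enriched regions, each 500 bp long and centred on a summit. The DRIP–seq lists held from 91894 regions (WT DMSO) to 169126 (A3B KO PMA 6 h), with a median pileup of 20 to 30 fragments at the summit, and the ChIP–seq lists held 4040 to 7122 regions. Read depth was not given, so the lengths of the lists are not comparable as amounts of R-loops. Fold enrichment, as the authors computed it, divides the summit's signal by the input's local background. Each condition is 1 library made from pooled immunoprecipitations, with no replicates, so no difference between conditions was tested, and intervals cover counting error only. As a look at the line, 6 of 10 genes of basal breast epithelium had a promoter region in all 6 DRIP–seq lists and 7 in at least 1. Of 10 neuronal genes, 0 had one in all 6 lists and 2 in at least 1. Among all protein-coding genes these shares were 18.5% and 55.3%, so 0 of 10 in all 6 lists is not far from the share of all genes.

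Clustered protocadherins are cadherin-like proteins of the cell surface, best known from neurons, where each cell uses its own small set of them and like sets on touching branches of one cell lead to repulsion. In PCDHA and PCDHG, each gene has its own promoter and its own long variable exon, which codes for the outside of the cell, the membrane span and the start of the inside. That exon is spliced to 3 constant exons shared by the whole cluster. PCDHB genes have a single coding exon and no constant exons. Promoters are chosen through DNA methylation, the DNA-binding protein CTCF and the ring complex cohesin, and most variable promoters carry a conserved sequence element with the core CGCT.

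The promoter sequences of the members with a listed region are shown, since these 4 starts are all that the lists mark within 2 kb. RefSeq promoters of GRCh38.p14 were found for 47 of the 53 members, all 47 the same as hg38 at those coordinates, and the 250 bases before the RefSeq start are printed on the plus strand. The printed bases overlap the listed region at PCDHA5 only. At PCDHA4, PCDHAC1 and PCDHGA7 the listed region lies outside them. For PCDHA4 (chr5:140806818-140807067) and PCDHA5 (chr5:140821363-140821612), capitals mark the longest run of bases common to both.
PCDHA4: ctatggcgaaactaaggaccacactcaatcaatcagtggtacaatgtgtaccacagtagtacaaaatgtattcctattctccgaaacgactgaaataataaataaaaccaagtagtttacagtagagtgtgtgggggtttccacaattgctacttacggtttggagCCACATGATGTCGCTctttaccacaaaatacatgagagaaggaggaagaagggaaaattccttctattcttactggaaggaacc
PCDHA5: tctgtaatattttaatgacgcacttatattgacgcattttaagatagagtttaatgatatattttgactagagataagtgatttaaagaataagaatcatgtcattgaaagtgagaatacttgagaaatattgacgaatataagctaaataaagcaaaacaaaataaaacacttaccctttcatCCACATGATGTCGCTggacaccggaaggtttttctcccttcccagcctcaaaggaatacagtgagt
For PCDHAC1 (chr5:140926049-140926298) and PCDHGA7 (chr5:141382492-141382741), capitals mark CGCT on either strand.
PCDHAC1: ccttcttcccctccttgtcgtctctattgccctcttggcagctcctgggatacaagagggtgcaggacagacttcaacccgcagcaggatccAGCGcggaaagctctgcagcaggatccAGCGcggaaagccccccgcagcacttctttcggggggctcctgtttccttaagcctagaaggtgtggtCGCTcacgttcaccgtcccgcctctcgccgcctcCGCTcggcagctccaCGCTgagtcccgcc
PCDHGA7: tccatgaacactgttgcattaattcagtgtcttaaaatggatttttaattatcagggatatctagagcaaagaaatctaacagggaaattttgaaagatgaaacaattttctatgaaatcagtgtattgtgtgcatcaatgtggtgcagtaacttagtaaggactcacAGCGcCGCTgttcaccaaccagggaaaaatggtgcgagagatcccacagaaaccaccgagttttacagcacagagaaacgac
PCDHB2 (chr5:141094365-141094614) is shown as a member with no promoter region in any list, with capitals on the 10 bases that were most often shared among member promoters.
PCDHB2: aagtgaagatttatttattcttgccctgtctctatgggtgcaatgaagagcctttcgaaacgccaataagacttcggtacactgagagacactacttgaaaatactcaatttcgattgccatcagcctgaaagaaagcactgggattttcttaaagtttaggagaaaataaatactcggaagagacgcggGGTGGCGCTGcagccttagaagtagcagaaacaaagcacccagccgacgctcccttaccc

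The run CCACATGATGTCGCT common to PCDHA4 and PCDHA5 was in the promoters of 6 of 13 PCDHA genes, on either strand, and in no other protein-coding promoter of the 15315 searched. The 10 bases CAGCGCCACC, or GGTGGCGCTG on the other strand, were in 12 of 14 PCDHB promoters, in 0 of 13 of PCDHA and in 0 of 20 of PCDHG, against 58 of all 15315 (0.379%). Both motifs were picked because they recur in members, so the counts describe the family and test nothing. The core CGCT or AGCG was in 46 of 47 member promoters and in 81.6% of all promoters, so 4 bases alone do not set the members apart.

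Member promoters were poor in GC. Over the 300 bases from 250 before to 50 after the start, their median GC content was 39.7% (range 32.3% to 66.0%, 47 genes) and that of all protein-coding promoters 63.0%. The median was 37.3% in PCDHA, 40.8% in PCDHB and 42.0% in PCDHG. PCDHAC1, a C-type gene that follows the variable array, had 63.2% in the 250 bases printed. CpG dinucleotides were at a median of 0.593 of the number expected from base content in members and 0.768 in all promoters.

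Hardly any member had a DRIP–seq region near its start. In WT cells, 1 of 53 members had one with DMSO, 1 with PMA 2 h and 0 with PMA 6 h, and in A3B KO cells 0 with DMSO, 1 with PMA 2 h and 1 with PMA 6 h. Of all protein-coding genes, 35.0% had one in WT DMSO, 31.9% in WT PMA 2 h and 38.5% in WT PMA 6 h, and 36.0%, 36.5% and 38.3% in A3B KO at the same times. In any of the 6 lists, 3 of 53 members (5.66%) had a promoter region, against 55.3% of all genes, and in all 6 lists 0 members, against 18.5% of all genes. No PCDHB gene had a promoter region in any of the 9 lists, and 49 of the 53 members had none.

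PCDHGA7, a gene of the PCDHG variable array, was the only member found in more than 1 list. Its region lay 1026 bp before the start in WT DMSO, with a fold enrichment of 6.01 and a pileup of 34 fragments, and 940 bp before it in A3B KO PMA 6 h, with a fold of 7.38 and a pileup of 54. These folds stood at percentiles 81.5 and 86.7 of their own lists. With a limit of 1 kb the call in WT DMSO is lost. No region was listed within 2 kb of its start in the other 4 lists. In those 4 lists a value below the authors' threshold is not known, so they hold no level for it.

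The regions at PCDHA4 and PCDHA5, neighbours in the PCDHA variable array, were weak. PCDHA4 had a region 430 bp after its start in WT PMA 2 h, with a fold of 3.03 and a pileup of 16 fragments (percentile 9.8). PCDHA5 had a region 80 bp after its start in A3B KO PMA 2 h, with a fold of 3.01 and a pileup of 13 (percentile 7.2). Both lay in the gene's own variable exon, both came from PMA 2 h lists, and neither was in the matching list of the other line. Both calls were lost at a stricter threshold (−log10 q of at least 5) and when lists were brought to equal length.

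At the edge of the 2 kb limit, PCDHGB7 missed it by 4 bp, with a region 2004 bp before its start in A3B KO DMSO and a fold of 5.44. PCDHGC4, a C-type gene at the end of the PCDHG array, had a region between 2271 and 2331 bp before its start in 5 lists, all except A3B KO DMSO, with folds of 3.73 to 6.50. Over all 53 members, the median distance from a start to the nearest region was 23.1 kb in WT DMSO, against 4.99 kb over all protein-coding genes, and 20.0 kb in the DMSO list of A3B KO, against 4.50 kb.

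Another large array from which a cell uses few genes, the olfactory receptors of chromosome 11, was also low. In WT DMSO, 4 of 178 olfactory receptor genes (2.25%) had a promoter region, with 17 of 178 (9.55%) in any DRIP–seq list and 0 in all 6. The epidermal differentiation complex of chromosome 1, an array of barrier genes used in stratified epithelium, had 13 of 55 (23.6%) in WT DMSO, 29.1% in any list and 14.5% in all 6. In WT DMSO, genes with a promoter region had a median promoter GC content of 64.7% and those without of 61.7%. Among 1251 other genes with a promoter GC between the members' quartiles (36.5% to 44.8%), 15.0% had a region in WT DMSO and 22.8% in A3B KO PMA 6 h. Of all 53 members, including those outside this GC range or with no promoter sequence found, 1.89% had one in each of these lists. Neither the part of GC content nor that of expression was tested, and RNA was not used here.

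Across the clusters as a whole, regions were not absent. The 3 clusters span 606.7 kb, 0.0208% of the assembled genome, and held 16, 25 and 29 regions in WT DMSO, PMA 2 h and PMA 6 h, and 11, 27 and 24 in A3B KO. Divided by each list's own density over the genome, this is 0.836, 1.07 and 0.839 in WT and 0.536, 1.08 and 0.681 in A3B KO. As shares of the list, WT DMSO had 0.0174% (95% Wilson interval 0.011% to 0.0283%) and A3B KO DMSO 0.0112% (0.0062% to 0.0200%), and these intervals overlap. Protein-coding gene bodies were at 1.21 to 1.33 times the genome density in the same 6 lists, and chromosome 5 at 0.834 to 0.882.

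PCDHG had the highest density of the 3 clusters in 5 of the lists, all except A3B KO DMSO, where PCDHB was highest. PCDHG, with 11 regions in WT DMSO, was at 1.91 times the genome density (counting interval 1.07 to 3.42) and at 1.86 in WT PMA 2 h (1.08 to 3.18), and had 1.06 in WT PMA 6 h. Protein-coding gene bodies, at 1.33 in WT DMSO and 1.25 in WT PMA 2 h, lay within those intervals. In A3B KO, PCDHG was at 0.648 with DMSO (4 regions, 0.252 to 1.67), 1.32 with PMA 2 h and 0.943 with PMA 6 h. PCDHA had 3, 8 and 9 regions in WT and 2, 11 and 7 in A3B KO, or 0.420, 0.921 and 0.698 and then 0.261, 1.18 and 0.533 times the genome density. PCDHB had 2, 4 and 9 in WT and 5, 6 and 7 in A3B KO, at 0.320 to 0.798 times the genome density. With 2 to 13 regions per cluster and list, the intervals of WT and A3B KO overlap in each cluster at each time.

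Within PCDHG, most regions lay in its last part, a split that was made after the positions were seen. The 79.8 kb after the variable exon of PCDHGA12, which hold PCDHGC3, PCDHGC4, PCDHGC5 and the constant exons, were at 3.57, 4.24 and 2.42 times the genome density in WT and 1.11, 3.03 and 1.73 in A3B KO. The 102.7 kb of the variable array before it were at 0.617, 0 and 0 in WT and 0.288, 0 and 0.335 in A3B KO. In PCDHA the pattern was another one. Its variable array was at 0.643, 1.59 and 0.713 in WT and 0, 2.45 and 0.524 in A3B KO, and its C-type and constant part at 0.248, 0.408 and 0.687 and then 0.463, 0.189 and 0.539.

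Most regions of the PCDHA variable array lay in a stretch of 20.9 kb from the start of PCDHA4 to that of PCDHA6. This stretch was also marked out after the positions were seen, so its counts are a description and test nothing. It held 2 regions in WT DMSO, 6 in WT PMA 2 h and 4 in WT PMA 6 h, and 0, 7 and 2 in A3B KO. In both lines PMA 2 h had the most. Folds there ran from 2.53 to 7.15. The equally long stretch from PCDHA1 to PCDHA4 held 0 regions in all 6 lists. A gene annotated under ENSG00000279726 covers both stretches on the minus strand, and no strand can be given to a region of these lists. The 98.3 kb from PCDHA6 to PCDHAC1 held 0 regions in each WT list and 1, 3 and 1 in A3B KO.

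Few regions lay in the long variable exons. These exons, with the single exons of PCDHB, make up 26.6% of the length of the clusters, and 6 of 132 regions (4.55%) of the 6 lists had their midpoint in one. By cluster the numbers were 2 of 40 in PCDHA (17.1% of its length), 4 of 33 in PCDHB (33.0%), all of them 1 site in the exon of PCDHB11, and 0 of 59 in PCDHG (31.4%). Variable exons are alike between genes. Of the 50-base stretches that start in them, 12.2% occur again in the 3 clusters or between them, against 0.746% outside the exons. Within 2 kb of a start that share had a median of 5.57% and a maximum of 29.1%, at PCDHB8. How reads that match several places entered the lists was not tested.

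Overlapping regions of the 6 lists were joined into 50 sites, 19 in PCDHA, 13 in PCDHB and 18 in PCDHG. Of these, 22 were in 1 list and 4 in all 6. The 4 lie in the last intron of PCDHA, before PCDHB2, before PCDHGC4 and after the first constant exon of PCDHG. Sequence from the last of these (chr5:141495704-141495853) is printed on the plus strand of hg38 as an example of a place that every DRIP–seq library marked, and its 3 CpG dinucleotides are in capitals.
PCDHG, after constant exon 1: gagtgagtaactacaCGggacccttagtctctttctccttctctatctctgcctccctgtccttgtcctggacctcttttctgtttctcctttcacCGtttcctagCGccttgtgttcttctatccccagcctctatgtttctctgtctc

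The site in the last intron of PCDHA, before the final constant exon and 39403 bp after the start of PCDHAC2, was the strongest of the 4 in 5 lists. Its fold was 4.64 in WT DMSO, 10.16 in WT PMA 2 h and 9.06 in WT PMA 6 h, and 6.81, 11.19 and 10.50 in A3B KO. In both lines the DMSO list had the lowest value. Folds of different libraries share no scale, and the median of all regions moved from 4.32 to 4.64 and 5.26 in WT and from 4.31 to 5.01 and 4.64 in A3B KO.

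The site 12052 bp before the start of PCDHB2, inside the antisense noncoding gene PCDHB1-AS1, had folds of 8.31, 6.91 and 5.28 in WT and 5.16, 6.92 and 7.35 in A3B KO. The order of the 3 values was opposite in the 2 lines, and this was not tested. The site 2900 bp before PCDHGC4 stayed between 3.68 and 4.67, and that after the first constant exon of PCDHG between 2.91 and 4.92. None of the 4 lies within 2 kb of a member's start.

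Setting WT beside A3B KO, 5 sites were shared with DMSO, of 14 in WT (9 in WT alone) and 9 in A3B KO (4 alone). With PMA 2 h, 14 were shared of 22 and 26, and with PMA 6 h 18 of 27 and 24. No site was in all 3 WT lists and none of A3B KO, and none the other way round. Only 3 sites were in 2 lists of one line and in none of the other, a grouping made after the values were seen. One 12592 bp before PCDHGC3 had folds of 9.66 in WT PMA 2 h and 11.69 in WT PMA 6 h. One 17853 bp before PCDHB2 had 5.50 and 7.32 in A3B KO at the same times, and one 8698 bp after the start of PCDHB1 had 5.03 with DMSO and 2.95 with PMA 6 h in A3B KO. With DMSO, PCDHG made most of the gap, with 7 of its 10 WT sites missing from A3B KO and 1 of 4 A3B KO sites missing from WT. Of those 7, only the site 2677 bp after the start of PCDHGA6 was in no A3B KO list. Each of the others was in at least 1 A3B KO list with PMA. Counted by regions, 7 of 16 cluster regions of WT overlapped a region of A3B KO with DMSO (43.8%, whole list 59.4%), 60.0% with PMA 2 h (whole list 63.5%) and 65.5% with PMA 6 h (67.9%). In the other direction 7 of 11 cluster regions of A3B KO overlapped one of WT with DMSO (63.6%, whole list 55.7%), 55.6% with PMA 2 h (58.8%) and 18 of 24 did with PMA 6 h (whole list 64.4%). The clusters thus lay below the whole list in 4 of these comparisons and above it in 2, and none was tested.

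Setting PMA beside DMSO, the WT lists shared 11 sites at 2 h, of 14 with DMSO and 22 with PMA, and 9 at 6 h, of 14 and 27. In A3B KO 6 sites were shared at each time, of 9 with DMSO and 26 or 24 with PMA. The PMA lists were longer as a whole, with 111771 and 165877 regions in WT against 91894 with DMSO, and 120428 and 169126 in A3B KO against 98432. Of the cluster regions of WT DMSO, 81.2% overlapped one of PMA 2 h (whole list 60.5%) and 62.5% one of PMA 6 h (70.2%), and of those of A3B KO DMSO 63.6% did at each time (61.7% and 72.7%). Of the cluster regions of WT PMA 2 h and 6 h, 52.0% and 34.5% overlapped one of WT DMSO (whole lists 51.4% and 44%), and of those of A3B KO 22.2% and 25.0% did (51.7% and 45.4%). The share of cluster regions that overlapped a region of every other list was 25.0%, 16.0% and 13.8% in WT, where the whole lists had 35.0%, 30.1% and 22.7%, and 45.5%, 14.8% and 16.7% in A3B KO, where they had 33.0%, 27.8% and 20.8%. It lay below the whole list in 5 lists and above it in A3B KO DMSO. These differences were not tested.

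Genes beside the clusters had promoter regions. Of 17 other protein-coding genes within 200 kb, 16 had one in at least 1 DRIP–seq list and 6 in all 6 (against 55.3% and 18.5% of all genes), namely NDUFA2, TMCO6, WDR55, DND1, TAF7 and ARAP3. TAF7, a subunit of the general transcription factor TFIID, lies between PCDHB and PCDHG and had folds of 13.51, 10.05 and 7.94 in WT and 13.31, 13.13 and 11.70 in A3B KO, above all 4 cluster sites except in both WT PMA lists, where the PCDHA site was higher. SLC25A2, a mitochondrial ornithine carrier gene beside it, had a region in A3B KO DMSO alone, with a fold of 3.05. ENSG00000279983, which lies inside PCDHB, had none.

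Relatives of the clustered genes had promoter regions in some lists. Of 12 protocadherins outside the clusters, 3 had a promoter region in WT DMSO (PCDH9 with a fold of 7.26, PCDH10 with 3.31 and PCDH12 with 2.86), 2 or 3 in each of the other lists and 5 in any DRIP–seq list. Of 4 FAT cadherins, giant relatives of the fly tumour suppressor Fat, 2 had one in WT DMSO (FAT2 with 6.52 and FAT1 with 5.74), and over the 6 lists the number ran from 0, in A3B KO PMA 2 h, to 3. Of 7 classical cadherins, which hold cells together, 3 did, with CDH3 (P-cadherin) at 4.98, CDH13 at 3.08 and CDH1 (E-cadherin) at 2.49, and over the 6 lists the number ran from 1 to 4. These 3 families are small. The share of all genes was 35.0% in WT DMSO, 36.5% in A3B KO PMA 2 h and 55.3% in any DRIP–seq list. The 5 of 12 protocadherins (41.7%) in any list did not exceed that share.

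Among 15 regulators of the clusters, 9 held a promoter region in the DMSO list of WT, 8 in that of A3B KO and 6 throughout the 6 lists, beside 35.0%, 36.0% and 18.5% of all genes. The highest folds in WT DMSO were those of RAD21, a cohesin subunit, with 22.26, and SETDB1, a histone H3 lysine methyltransferase, with 11.33. SMC3 and STAG2, cohesin subunits too, came next with 9.55 and 8.65. CTCF had the lowest fold of the 9, with 2.58 (percentile 2.5). Outside WT DMSO, CTCF had a promoter region in A3B KO PMA 2 h alone. Counted over any of the 6 lists, the number stayed at 9 of 15, beside 55.3% of all genes, so the other regulators had none. Among 14 genes for partners and for the processing of protocadherin proteins, 7 had one in WT and 8 in A3B KO with DMSO, beside the same 35.0% and 36.0%. NCSTN and APH1A, subunits of the gamma-secretase that cuts protocadherins in the membrane, had 7.35 and 4.96, and WASF1 and NCKAP1 of the WAVE complex, which drives actin assembly, had 4.12 and 4.02.

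In the A3B ChIP–seq lists few genes of any kind had a promoter region. One was listed for 1 of 53 members in DOX- DMSO, 0 in DOX+ DMSO and 0 in DOX+ PMA 2 h, against 0.831%, 5.03% and 3.99% of all protein-coding genes. With shares this low, counts of 0 or 1 are not read here as a difference between the members and other genes. With any annotated start counted, DOX+ PMA 2 h had 2 members, PCDHA10 and PCDHGC3. The 1 member was PCDHAC1, with a region 512 bp after its start, a fold of 1.87 and a pileup of 49 fragments (percentile 0.8), in the library where A3B-eGFP was not switched on, and it was lost at a −log10 q of at least 5. In the clusters there were 3 regions in DOX- DMSO, 0 in DOX+ DMSO and 2 in DOX+ PMA 2 h. This is 3.56 times the list's own genome density in DOX- DMSO (counting interval 1.21 to 10.5) and 1.35 times in DOX+ PMA 2 h (0.370 to 4.91), and at a −log10 q of at least 5 it was 0 in both. The other 2 of DOX- DMSO lay in the variable exons of PCDHA9 and PCDHGB5, and those of DOX+ PMA 2 h in the variable exon of PCDHA10 and in an intron 20213 bp after the start of PCDHGC5. Their folds ran from 2.01 to 3.88, and 0 of the 5 ChIP–seq regions overlapped a region of any DRIP–seq list. Of all ChIP–seq regions, 66.8% in DOX- DMSO and 64.8% in DOX+ PMA 2 h did, and with 5 regions this was not tested.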

How the data were processed

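Lists from DRIP–seq (WT, A3B KO) and anti-GFP ChIP–seq (MCF10A-TREx-A3B-eGFP) were analysed, 9 deposited lists with 1 per immunoprecipitation; the 9 input samples were not used on their own. The authors trimmed reads with Cutadapt 1.13, aligned them to hg38 with STAR 2.6.1d, kept proper pairs with SAMtools 1.3.1 with no mapping-quality filter stated, removed duplicates with Picard and excluded regions with bedtools 2.29.2, and called peaks with MACS2 at a q of 0.01 against each input (the labels give version 2.2.6, the methods another). The deposited pileup is the authors' signal in fragments at the summit. The deposited −log10 p and −log10 q are the authors' values, and the fold enrichment is the authors' ratio to the local background. All entries were 500 bp long, and none ran past the end of an hg38 chromosome. Whether starts count from 0 or 1 is not given, which can move a position by 1 bp. The depth in reads is unknown.

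Samples were grouped by their labels, with 1 library per condition and no test. Regions on chromosomes 1 to 22 and X were set against GENCODE 44 starts (the authors used another release), and a promoter region is one with its midpoint within 2 kb of the most 5′ start. Density is regions per kb over assembled bases. A region shared by several genes was counted 1 time. Wilson intervals are at 95%. Percentiles rank fold within a list. Every member with a promoter region was named, with up to 4 genes of each other list by fold in WT DMSO, and CTCF. Members and lists were chosen with earlier results of these data known. There were 8 alternatives: a −log10 q of at least 5, equal list lengths, overlapping entries merged, midpoints within 1 kb, any annotated start, overlap of at least 1 bp with the promoter window or with the cluster, and 2 kb added at each end of a cluster. Counting steps were tested on planted regions and checked with bedtools 2.31.1. RefSeq promoters covered 47 of 53 members. Sequence at some sites is not reported here. Tables were handled with pandas 2.3.3 and numpy 2.4.6, intervals with scipy 1.17.1, sequence with pysam 0.24.0 and figures with matplotlib 3.10.9, in Python 3.11.15.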

Additional observations from a re-analysis of the deposited data

Results flagged for a closer look

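The density of regions after PMA, divided by the density of the same list over the genome, moved in opposite directions in WT and A3B KO cells in PCDHB and PCDHG. This is why these values are given here, and with 1 library per condition the difference was not tested. In PCDHB, WT went from 0.320 with DMSO to 0.526 with PMA 2 h and 0.798 with PMA 6 h, and A3B KO from 0.747 to 0.733 and 0.609. In PCDHG, WT went from 1.91 to 1.86 and 1.06, and A3B KO from 0.648 to 1.32 and 0.943. The changes at 2 h are small in A3B KO for PCDHB and in WT for PCDHG. These ratios rest on 2 to 13 regions each, and their counting intervals overlap between the lines. Before the division, PCDHB regions numbered 2, 4 and 9 in WT and 5, 6 and 7 in A3B KO, a rise in both lines. PCDHG regions numbered 11, 13 and 11 in WT and 4, 10 and 10 in A3B KO. All lists with PMA were longer than the DMSO list of their line, and depth is unknown. In PCDHA the ratio after PMA was above that with DMSO in both lines at both times, from 0.420 to 0.921 and 0.698 in WT and from 0.261 to 1.18 and 0.533 in A3B KO.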

How the results depend on the processing

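Of 54 alternative counts of members with a promoter region, 42 stayed within 1.5 times the reported count and 12 did not. No alternative took a list above 2 of 53 members. Part of the 42 could not move. Lists with 0 members had none to lose under a stricter setting, and equal list lengths leave the shortest lists, WT DMSO and DOX- DMSO, as they are. The 42 are thus no measure of stability. A −log10 q of at least 5 left 0 members in WT PMA 2 h, A3B KO PMA 2 h and ChIP–seq DOX- DMSO, and equal list lengths left 0 in WT PMA 2 h and A3B KO PMA 2 h, so the calls at PCDHA4 and PCDHA5 were lost in both and that at PCDHAC1 in the former. A limit of 1 kb left 0 in WT DMSO, since the PCDHGA7 region lies 1026 bp away. Any annotated start gave 2 in WT PMA 2 h (PCDHGC3 added), 2 in DOX- DMSO (PCDHA9 added) and 2 in DOX+ PMA 2 h (PCDHA10 and PCDHGC3). Any overlap with the promoter window gave 1 in A3B KO DMSO (PCDHGB7), 2 in DOX- DMSO and 1 in DOX+ PMA 2 h. Equal list lengths could not move the density ratios of the shortest lists either. Of 45 alternative density ratios over the clusters, 42 stayed within the counting interval. The other 3 were 0 in place of 3.56 in DOX- DMSO at a −log10 q of at least 5, and 0 in place of 1.35 in DOX+ PMA 2 h there and with equal list lengths. No paired analysis was possible because each condition is 1 library and no result comes from a test. Depth in reads is unknown, so a gene without a listed region may still hold R-loops below the authors' threshold.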
